A study of Mus musculus with 30 samples.

Results

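Foxl2 and Fst, the gene of follistatin, were followed in the embryonic mouse ovary through every probe set that the platform annotation assigns to either symbol, 2 of 15964 named genes. Array A carried 1 of these probe sets (Fst, 98817_at), array B carried 2 (Foxl2, 113517_at, and Fst, 162599_i_at) and array C carried 0, so that the genes were represented by 3 of the 36701 probe sets that are not controls. All 3 passed the filter on low signals, a signal of at least 50 on 2 or more of the 10 arrays of a type, along with 24825 probe sets in all. The samples were total RNA of pooled ovaries from BL/6-129 mice, extracted with TRIzol, at 11.5, 12.5, 14.5, 16.5 and 18.5 days post coitum (dpc). Each age had 2 numbered samples, and each sample number had an array A, B and C, giving 30 arrays. Gonads of 11.5 and 12.5 dpc had been sexed by PCR for Sry, the testis-determining gene of the Y chromosome. No treatment or mutation was part of the series, and the labels do not state whether both samples of one age were separate pools of ovaries, so p-values measure only their spread, which may be technical. The arrays of one number were taken as 1 sample, which the labels do not state.

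FOXL2 is a forkhead transcription factor of the supporting cells of the ovary. These cells surround the germ cells as pregranulosa cells in the fetus and become the granulosa cells of the follicle, and FOXL2 is needed for their differentiation and for keeping them from taking a Sertoli cell fate. Follistatin is a secreted glycoprotein that binds activins and some related ligands and keeps them from their receptors. In the fetal ovary Fst acts downstream of the ligands WNT4 and RSPO1, and mouse ovaries without it form a coelomic vessel, a feature of the testis, and lose germ cells.

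The values were scaled signal intensities of whole ovaries, so pregranulosa cells could not be separated from the other cell types. Here fewer cells of a type and less RNA per cell cannot be told apart. On each array 48.8% to 63.0% of probe sets reached a signal of 50. Of 20 genes of Sertoli and Leydig cells on the arrays, listed as a check of the tissue, Sry, Amh, Cyp17a1, Hsd17b3 and Cldn11 stayed under 50 on all arrays, and the other 15 did not. The summed signal of the 20 genes was 4014 to 4937 at 11.5 dpc and 3151 to 3199 at 18.5 dpc. Of 14 tested, 1 (Hsd3b1) rose and 3 (Dmrt1, Cyp11a1 and Rhox5) fell between these ages. Of all tested probe sets 7.59% rose and 6.87% fell. Several of the 20, such as Nr5a1 and Star, are also expressed in the ovary. The signal of a probe set depends on its probes, so the signals of Foxl2 and Fst were not ranked against each other.

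Foxl2 rose across the series, from a low signal in the youngest ovaries to its highest mean at 16.5 dpc. At 11.5 dpc the samples had signals of 94.5 and 89.5, with a mean of 92.0 ± 3.54 (SD, n = 2). At 12.5 dpc they stood at 242.9 and 92.8, which gave a mean of 168 ± 106 (SD, n = 2). Replicate 2 of this age thus lay within the range of 11.5 dpc, and replicate 1 lay above it. The signals were 374.4 and 327.7 at 14.5 dpc, with a mean of 351 ± 33.0 (SD, n = 2). They reached 792.5 and 858.4 at 16.5 dpc, with a mean of 825.5 ± 46.6 (SD, n = 2). At 18.5 dpc they were 667.4 and 793.3, with a mean of 730.3 ± 89.0 (SD, n = 2). All samples of 14.5 dpc and later lay above all samples of the earlier ages, and the samples of 16.5 and 18.5 dpc overlapped.

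**Figure D1:**
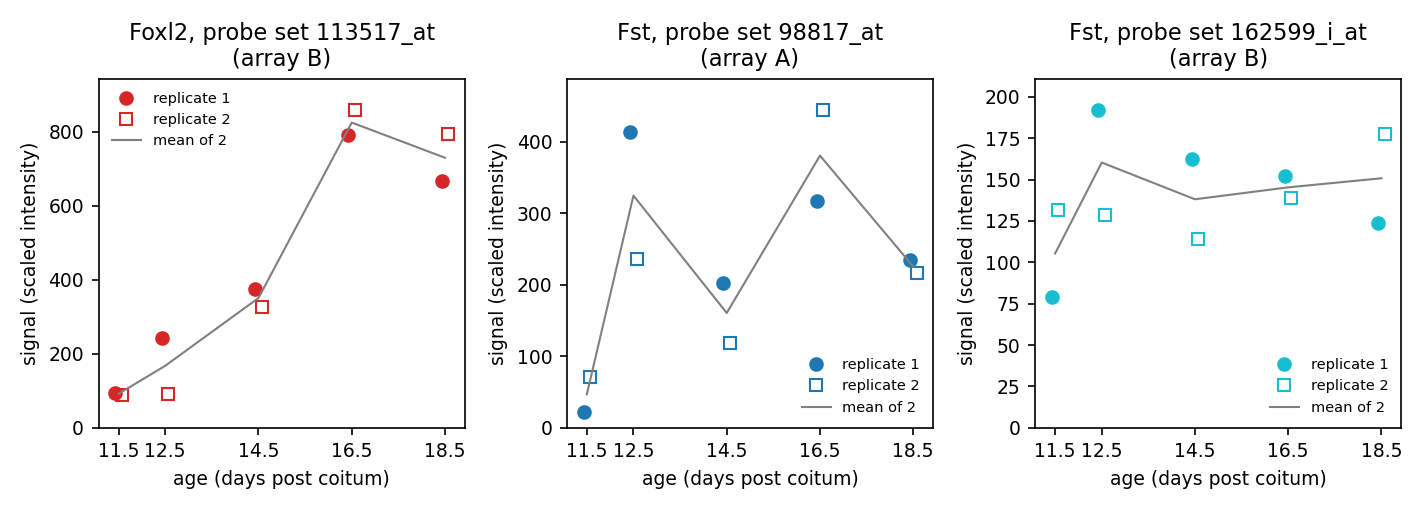
Signal of the 3 Foxl2 and Fst probe sets (scaled intensity, vertical axes starting at 0 and differing between panels) against age in days post coitum; filled circles are replicate 1, open squares are replicate 2 and grey lines join the means of the 2 samples. Foxl2 climbs from 92.0 at 11.5 dpc to 825.5 at 16.5 dpc, Fst on array A has high means at 12.5 and 16.5 dpc with 160.5 between them, and Fst on array B moves within 78.9 to 191.8.

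The rise of Foxl2 from 11.5 to 18.5 dpc was 2.78 ± 0.31 (log2, standard error; 95% interval 2.13 to 3.44), or 6.89-fold on the log2(signal + 16) scale, and passed limma's test with Benjamini-Hochberg adjustment (adjusted p = 8.5e-05). In this comparison 14.5% of all tested probe sets were called, meaning an adjusted p under 0.05, and 0.302% had as large a rise. The rise of 2.32 ± 0.31 from 12.5 to 16.5 dpc, 5.01-fold, was called as well (limma, adjusted p = 0.000796), where 5.88% of tested probe sets were called and 0.258% rose as much. The steps between neighbouring ages were not called by themselves. The change was 0.64 ± 0.31 from 11.5 to 12.5 dpc (limma, adjusted p = 0.421), with overlapping samples and a range of 0.01 to 1.26 when a sample was left out, and 1.13 ± 0.31 from 12.5 to 14.5 dpc (limma, adjusted p = 0.0879). It was 1.20 ± 0.31 from 14.5 to 16.5 dpc (limma, adjusted p = 0.0865) and -0.18 ± 0.31 from 16.5 to 18.5 dpc (limma, adjusted p = 0.858; 95% interval -0.84 to 0.48). In order of mean signal the ages ran 16.5, 18.5, 14.5, 12.5 and 11.5 dpc, and of these neighbours 16.5 and 18.5 dpc, and 12.5 and 11.5 dpc, overlapped in their samples.

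Over all 5 ages the level of Foxl2 differed in limma's F test (adjusted p = 9.67e-05), as did 14.4% of tested probe sets. In an exact permutation test of the F statistic over the 945 ways of pairing the 10 samples, 5 pairings gave as large a value (p = 0.00529, where the smallest possible is 0.00106). The step from 12.5 to 14.5 dpc depended on the samples of 12.5 dpc: the change was 1.75 (limma, adjusted p = 0.00723) without replicate 1 and 0.50 (limma, adjusted p = 0.447) without replicate 2, the sample with the lower signal. The step from 14.5 to 16.5 dpc ranged from 1.11 to 1.29 with a sample left out. It gained a call only without a sample of 12.5 dpc, an age outside the step, where the estimate of 1.20 was unchanged.

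Fst on array A rose between 11.5 and 12.5 dpc, and its means then alternated between lower and higher. At 11.5 dpc the signals were 22.7 and 71.0, with a mean of 46.9 ± 34.1 (SD, n = 2). At 12.5 dpc they were 413.3 and 236.0, with a mean of 325 ± 125 (SD, n = 2), so that the lower sample stood well above both of the age before. The samples of 14.5 dpc had 202.5 and 118.5, with a mean of 160.5 ± 59.4 (SD, n = 2). Those of 16.5 dpc had 317.2 and 443.6, with a mean of 380 ± 89.4 (SD, n = 2). At 18.5 dpc the signals were 234.8 and 216.0, with a mean of 225 ± 13.3 (SD, n = 2). Each age was thus separated from the age before it without overlap, in alternating directions, and both samples of 11.5 dpc lay below the other 8.

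The first of these steps passed the test. Fst rose by 2.50 ± 0.36 from 11.5 to 12.5 dpc (95% interval 1.72 to 3.29), or 5.67-fold on the log2(signal + 16) scale (limma, adjusted p = 0.0281). It was 1 of 3 Foxl2 and Fst probe sets called in this step, in which 0.226% of tested probe sets, 56 in number, were called. Of the tested probe sets 7, or 0.0282%, had as large a rise. The call lay close to the threshold, and it was lost without the filter on low signals (2.50, adjusted p = 0.0646) and without the intensity trend of limma's variance estimate (2.50, adjusted p = 0.0843). It was also lost without replicate 1 of 11.5 dpc (1.92, adjusted p = 0.0808), without replicate 1 of 12.5 dpc (2.12, adjusted p = 0.25) and without replicate 2 of 12.5 dpc (2.89, adjusted p = 0.103), all by limma.

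The later steps of Fst on array A were not called, although the samples did not overlap. The change was -0.94 ± 0.36 from 12.5 to 14.5 dpc (limma, adjusted p = 0.23), a step in which 1.66% of tested probe sets and 0 of the 3 Foxl2 and Fst probe sets were called. It was 1.19 ± 0.36 from 14.5 to 16.5 dpc (limma, adjusted p = 0.135), where 0.689% of tested probe sets and again 0 of 3 were called. With a sample left out this step ran from 0.84 to 1.54. It gained a call only without a sample of 11.5 dpc, an age outside the step, with the estimate unchanged. From 16.5 to 18.5 dpc the change was -0.70 ± 0.36 (limma, adjusted p = 0.443), where 0.624% of tested probe sets and 0 of 3 were called. Between 12.5 and 16.5 dpc, the ages with the highest means, the samples overlapped and the change was 0.25 ± 0.36 (limma, adjusted p = 0.762; 95% interval -0.53 to 1.04). From 11.5 to 18.5 dpc Fst rose by 2.06 ± 0.36, or 4.16-fold (limma, adjusted p = 0.00275), and 0.878% of tested probe sets rose as much. The level differed over the 5 ages in limma's F test (adjusted p = 0.00184) and in the exact permutation test (13 of 945 pairings, p = 0.0138).

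The other Fst probe set, on array B, had no called step. The suffix i is used by the manufacturer for sets with fewer than the usual number of probes. Its samples had signals of 78.9 and 131.7 at 11.5 dpc, 191.8 and 128.8 at 12.5 dpc, 162.3 and 113.8 at 14.5 dpc, 152.0 and 138.6 at 16.5 dpc, ending with 123.8 and 177.7 at 18.5 dpc. Replicate 1 of 11.5 dpc was the lowest of the 10 and replicate 1 of 12.5 dpc the highest, and the samples overlapped in each of the 6 comparisons of ages. The mean moved from 105 ± 37.3 (SD, n = 2) at 11.5 dpc to 160 ± 44.6 (SD, n = 2) at 12.5 dpc, a change of 0.55 ± 0.30 (limma, adjusted p = 0.478; 95% interval -0.10 to 1.20). From 11.5 to 18.5 dpc it moved by 0.48 ± 0.30 (limma, adjusted p = 0.326; 95% interval -0.17 to 1.12). No comparison was called, with adjusted p-values of 0.326 to 0.979, nor was the F test (adjusted p = 0.578; exact permutation p = 0.585). The interval of the first step for this probe set ended at 1.20 and that for that on array A began at 1.72.

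**Figure D2:**
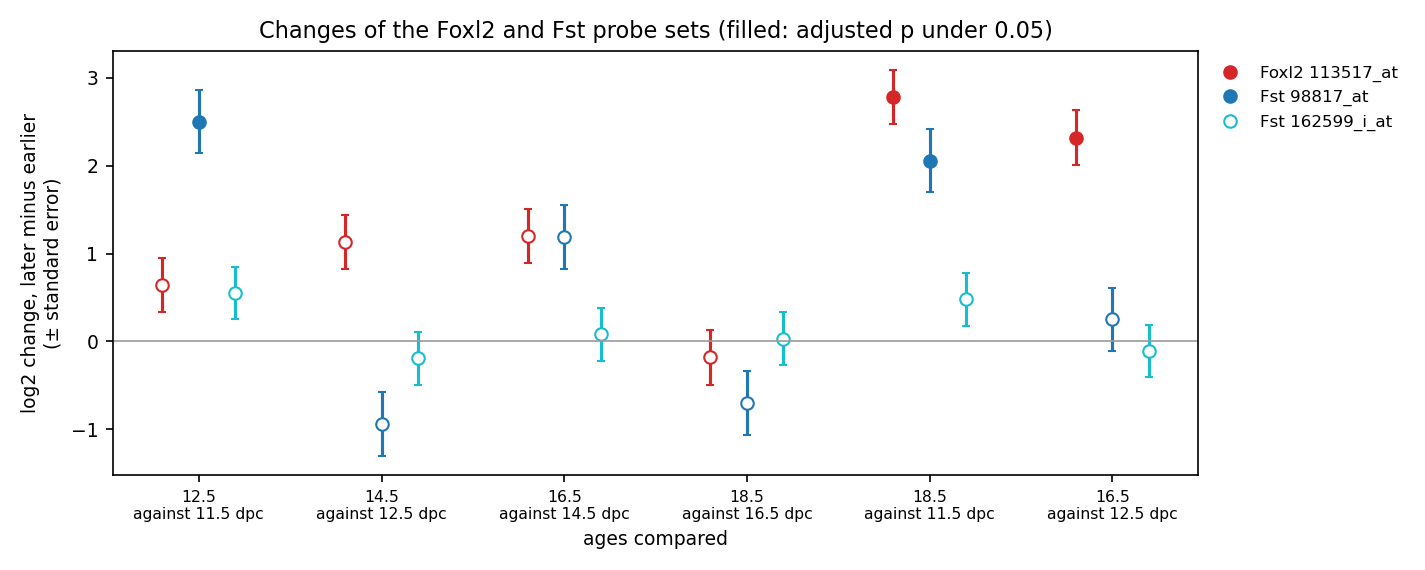
Log2 change of the 3 probe sets (vertical axis, later minus earlier age, with standard errors) in the 6 comparisons of ages; filled points had an adjusted p under 0.05 and open points did not. Fst on array A stands at 2.50 in the first step, where Foxl2 stands at 0.64, while Foxl2 stands at 2.32 and Fst on array A at 0.25 from 12.5 to 16.5 dpc.

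Across the 10 samples both Fst probe sets were nevertheless related by Pearson's r but not by Spearman's rho, in part through the youngest age. Pearson's r of their log2 signals was 0.77 (permutation p = 0.0107, 0.0321 adjusted over the 3 pairs of probe sets) and Spearman's rho was 0.53 (permutation p = 0.125, adjusted 0.198). Without the samples of 11.5 dpc, the 2 farthest from the median, r was 0.49, so the relation rests in part on them. Between the means of the 5 ages r was 0.95, and between the deviations from those means it was 0.78. The 2 samples of an age differed in the same direction on both probe sets at 11.5, 12.5 and 14.5 dpc, 3 of the 5 ages. Foxl2 and Fst on array A had an r of 0.64 (permutation p = 0.0387, adjusted 0.058) and a rho of 0.52 (permutation p = 0.132, adjusted 0.198); r was 0.75 without replicate 2 of 11.5 dpc and replicate 2 of 12.5 dpc. For Foxl2 and Fst on array B r was 0.46 (permutation p = 0.182, adjusted 0.182) and rho 0.36 (permutation p = 0.315, adjusted 0.315), and r was 0.54 without the same 2 samples. The permutations shuffled all 10 samples freely although these form 5 age groups, so samples of one age were taken as independent. Within ages the last 2 pairs had an r of 0.49 and 0.58.

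The spread between samples of one age was largest for these genes at the youngest ages. Foxl2 was higher in replicate 1 of 12.5 dpc than in replicate 2 by 1.25 on the log2 scale, a gap that 3.63% of tested probe sets matched at that age. Both Fst probe sets were higher in the same sample, that on array A by 0.77 and that on array B by 0.52. Of 26 tested genes of female supporting cells, 16 were higher in that sample, or 61.5%, beside 50.6% of all tested probe sets. At 11.5 dpc Fst on array A was lower in replicate 1 by 1.17 on the log2 scale, a gap matched by 6.79% of tested probe sets, whereas the Foxl2 samples of that age differed by 0.07.

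The timing of both genes was compared directly through log2 Fst on array A minus log2 Foxl2 in each sample, set to a mean of 0 at 11.5 dpc. This gave -0.62 and 0.62 for the samples of 11.5 dpc and 1.63 and 2.11 for those of 12.5 dpc. The samples of 14.5 dpc had 0.06 and -0.46, those of 16.5 dpc -0.38 and -0.03, and those of 18.5 dpc -0.55 and -0.91. Both samples of 12.5 dpc lay above the other 8. Of the other ages the samples of 11.5 dpc spanned those of 14.5 and 16.5 dpc, and both of 18.5 dpc lay below those of 14.5 and 16.5 dpc. In the exact permutation test over the 5 ages the difference did not pass the threshold (57 of 945 pairings, p = 0.0603). With a pseudocount of 64 the exact permutation p was 0.0159, with quantile normalization 0.0476 and with a pseudocount of 1 0.0889. For the array B probe set in place of that on array A it was 0.00635, where the age means of the difference were 0.13, 0.05, -1.27, -2.38 and -2.18 without setting any age to 0. Fst on array B itself did not pass the exact permutation test (p = 0.585), so this difference mostly carries the change of Foxl2. Set to a mean of 0 at 11.5 dpc, it was -0.45 and 0.28 in the samples of 12.5 dpc, beside -0.35 and 0.35 at 11.5 dpc. The high values at 12.5 dpc with the array A probe set were thus not seen with that on array B.

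Genes whose signal ran most like that of each gene were found among 3571 named genes that were tested and whose age means spanned at least 1 on the log2 scale. For Foxl2 these were Kank3, an ankyrin repeat protein of the KANK family (Pearson's r over the 10 samples 0.976), and Gng13, a G protein gamma subunit that is also among the female supporting cell genes (0.973). Slc25a33, a mitochondrial carrier of pyrimidine nucleotides (0.971), Met, the receptor of hepatocyte growth factor (0.969), Cav1, the caveolar protein caveolin 1 (0.968), and Phka2, a subunit of phosphorylase kinase (0.967), came next. Kank3 had signals of 102.7 and 119.6 at 11.5 dpc, 167.7 and 135.9 at 12.5 dpc, 263.0 and 201.7 at 14.5 dpc, 404.5 and 398.5 at 16.5 dpc, ending with 418.7 and 441.9 at 18.5 dpc. Gng13 had 31.5 and 48.9, 129.0 and 64.6, 536.3 and 351.4, 766.1 and 2061.6, and 1451.3 and 1545.3 at the same ages. As with Foxl2, both were higher in replicate 1 than in replicate 2 of 12.5 dpc. An r of at least 0.9 with Foxl2 was reached by 125 of the 3571 genes.

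For Fst on array A the most alike were Nrbp2, a pseudokinase (0.932), the unnamed transcript BC065397 (0.928) and Ece1, the endothelin-converting enzyme (0.927). They were followed by Uba6, a ubiquitin-activating enzyme (0.912, on a probe set with the suffix f), Parp10, an ADP-ribosyltransferase (0.905), and Dazl, a germ cell RNA-binding protein (0.898). Nrbp2 and BC065397 had low signals, with age means of 27.7 to 71.5 and 35.1 to 101, and did not pass limma's F test over the ages (adjusted p = 0.111 and 0.205). An r of 0.9 with Fst was reached by 5 of the 3571 genes. Ece1 had a lower mean at 14.5 dpc than on either side, as Fst did, and its means over the 5 ages were 297, 505, 419, 729.5 and 579. Dazl did not, with means of 63.2, 729, 808, 688 and 819. Another Dazl probe set had means of 42.85, 77.85, 91.6, 54.65 and 57.0 and did not pass limma's F test (adjusted p = 0.109). The genes were picked for their r out of all that were compared, so it is a description.

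**Figure D3:**
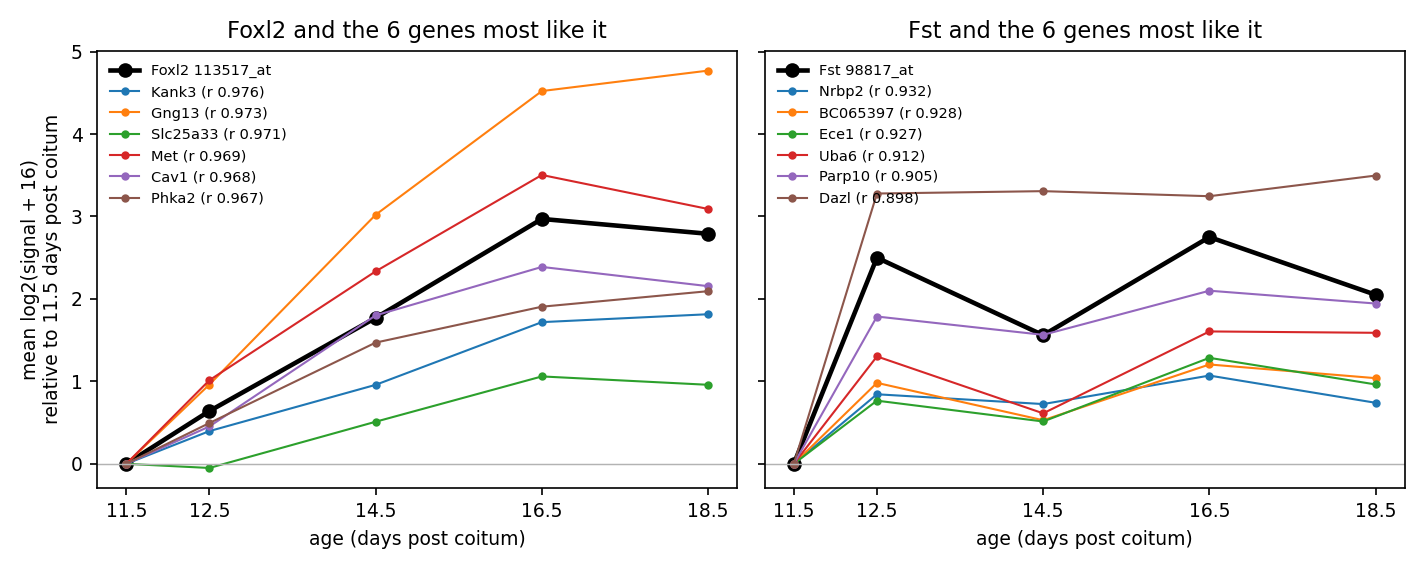
Mean log2(signal + 16) of the 2 samples of each age relative to 11.5 dpc (vertical axis) against age in days post coitum for Foxl2 (left, black) and Fst on array A (right, black) with the 6 genes of highest Pearson's r to each. The Foxl2-like genes climb to 16.5 dpc, Gng13 the most, and 5 of the 6 genes beside Fst have a lower mean at 14.5 than at 12.5 dpc, with Dazl the exception.

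The promoter windows of Foxl2 and of the 2 genes most like it are shown to compare the start regions of genes whose signals ran together. They are RefSeq sequences of build GRCm38.p6, from 250 bases before to 50 bases after a start site, read 5′ to 3′ on the strand of the gene. Capitals mark the GC box GGGCGG or its reverse complement CCGCCC, and the forkhead core TAAACA or its reverse complement TGTTTA. The Foxl2 window lies at chr9:98955357-98955656, that of Kank3 at chr17:33810273-33810572 and those of both Gng13 starts at chr17:25716922-25717221 and chr17:25717278-25717577, all on the plus strand.
Foxl2: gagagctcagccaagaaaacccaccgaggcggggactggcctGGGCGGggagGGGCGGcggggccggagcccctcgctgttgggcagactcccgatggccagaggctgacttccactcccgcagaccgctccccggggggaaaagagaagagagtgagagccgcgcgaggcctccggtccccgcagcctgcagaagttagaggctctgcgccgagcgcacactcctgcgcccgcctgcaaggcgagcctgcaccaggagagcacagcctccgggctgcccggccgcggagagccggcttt
Kank3: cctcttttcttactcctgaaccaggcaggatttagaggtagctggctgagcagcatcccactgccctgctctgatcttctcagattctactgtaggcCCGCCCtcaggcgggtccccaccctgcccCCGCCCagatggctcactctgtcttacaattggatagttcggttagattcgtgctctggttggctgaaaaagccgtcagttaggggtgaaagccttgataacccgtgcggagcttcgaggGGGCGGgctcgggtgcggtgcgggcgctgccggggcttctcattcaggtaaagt
Gng13, first start: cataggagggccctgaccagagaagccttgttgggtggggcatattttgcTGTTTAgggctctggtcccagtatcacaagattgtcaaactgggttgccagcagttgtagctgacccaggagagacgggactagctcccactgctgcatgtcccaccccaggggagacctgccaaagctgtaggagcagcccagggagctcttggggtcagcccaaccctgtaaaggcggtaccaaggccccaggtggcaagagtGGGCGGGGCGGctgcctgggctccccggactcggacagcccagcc
Gng13, second start: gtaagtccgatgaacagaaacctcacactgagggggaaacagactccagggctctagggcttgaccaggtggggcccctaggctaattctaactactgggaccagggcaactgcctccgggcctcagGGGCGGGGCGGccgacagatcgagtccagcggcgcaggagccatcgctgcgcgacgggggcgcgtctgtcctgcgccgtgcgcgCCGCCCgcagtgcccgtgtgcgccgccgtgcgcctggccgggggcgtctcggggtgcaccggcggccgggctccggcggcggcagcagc

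The Foxl2 window was rich in G and C, at 71.3% beside a median of 52.7% over the 32851 windows of the table, and 92.2% of windows had a lower share. It held 27 CpG dinucleotides beside a median of 7. Its 2 GC boxes began at -208 and -198 from the start site. The GC box, on either strand, was in 35.7% of all windows. The Kank3 window held 3 GC boxes, and the windows of the first and second Gng13 start held 2 and 3, of which 2 in each overlap by a base. The forkhead core was in 13.4% of all windows and in 1 of these 4, the first Gng13 start, on the other strand at -200. None of the 4 held the GATA motif AGATAA, the NR5A1 half-site AAGGTCA, the TCF/LEF motif CTTTGA or the TATA motif TATAAA on either strand, which were in 11.2%, 4.72%, 16% and 13.6% of all windows.

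Other genes of female supporting cells moved in both directions. Of 30 listed genes 26 were tested, and from 11.5 to 18.5 dpc 7 rose, 7 fell and 12 were not called, with a median change of -0.09 beside 0.02 over all tested probe sets. Of all tested probe sets 7.59% were called up and 6.87% down in this comparison. The genes that rose were Gng13 (4.77 ± 0.42 on the log2 scale, limma adjusted p = 2.32e-05), Irx3, an Iroquois homeobox factor (3.11 ± 0.24), Lgr5, a receptor of R-spondins (2.93 ± 0.22), and Aldh1a1, which makes retinoic acid (2.22 ± 0.16). Rspo1, an R-spondin that acts upstream of Fst in the fetal ovary, rose by 1.01 ± 0.20 (limma, adjusted p = 0.00585), Runx1 by 0.94 ± 0.25 and Kitl, the ligand of the germ cell receptor KIT, by 0.76 ± 0.15. Those that fell were Zfpm2, Tcf21, Nr2f2, Lhx9, Cbx2, Gata4 and Wt1, most of them transcription regulators of the early gonad, from -2.45 ± 0.49 for Zfpm2 to -0.67 ± 0.18 for Wt1. Other tested probe sets of Zfpm2 changed by -0.41 and 1.00, another of Cbx2 by -0.30 and another of Gata4 by 0.29. None of these was called in this comparison, and those of Zfpm2 and Gata4 did not all fall. Not called were Wnt4, Ctnnb1, Lgr4, Irx5, Bmp2, Cdkn1b, Nr5a1, Nr0b1, Map3k4, Six4, Numbl and Axin2, of which Axin2 had another probe set that rose by 1.32 (limma, adjusted p = 0.00119). With 1 sample left out, Runx1, Kitl, Zfpm2, Wt1 and Gata4 lost the call, at adjusted p-values of up to 0.169, 0.0669, 0.0638, 0.148 and 0.097, without a sample of 11.5 or 18.5 dpc.

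Irx3 was the gene of this list that rose with Fst in the first step, in which 0.197% of all tested probe sets were called up. Its signals were 33.7 and 63.2 at 11.5 dpc, 331.6 and 214.4 at 12.5 dpc, 431.4 and 354.1 at 14.5 dpc, 656.2 and 648.4 at 16.5 dpc, ending with 527.0 and 524.6 at 18.5 dpc. The rise from 11.5 to 12.5 dpc was 2.17 ± 0.24, or 4.51-fold (limma, adjusted p = 0.00583; 0.0744 without replicate 1 of 12.5 dpc), and the other 25 tested genes were not called in this step. Lgr5 rose later, from 9.3 and 8.3 at 11.5 dpc and 22.4 and 17.9 at 12.5 dpc to 122.8 and 89.8 at 14.5 dpc. Its signals were 159.3 and 204.5 at 16.5 dpc and 166.9 and 179.8 at 18.5 dpc. From 12.5 to 14.5 dpc, where 1.08% of all tested probe sets were called up and 0.576% down, Lgr5 rose by 1.75 ± 0.22 and Aldh1a1 by 1.85 ± 0.16. Gng13 rose by 2.06 ± 0.42, and Nr0b1, a nuclear receptor, fell by 1.13 ± 0.23. Gng13 and Nr0b1 lost this call, at limma adjusted p-values of up to 0.201 and 0.225, when a sample of 12.5 or 14.5 dpc was left out, and Gng13 also without a sample of 18.5 dpc (0.06 and 0.0604). From 12.5 to 16.5 dpc, the span of the Foxl2 rise, 5 of the 26 rose (Gng13, Lgr5, Aldh1a1, Irx3 and Runx1) and 2 fell (Cbx2 and Nr2f2). Of all tested probe sets 3.17% were called up and 2.71% down. Irx3, Runx1 and Nr2f2 lost their call in this span with 1 sample left out.

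Of both ligands upstream of Fst, Rspo1 rose over the series and Wnt4 was not called. Rspo1 had signals of 81.0 and 81.7 at 11.5 dpc, 147.8 and 101.6 at 12.5 dpc, 134.3 and 100.8 at 14.5 dpc, 158.4 and 182.2 at 16.5 dpc, ending with 177.6 and 181.4 at 18.5 dpc. Wnt4, on a probe set with the suffix r, was called in 0 of the 6 comparisons and did not pass the F test (adjusted p = 0.56). Its mean was 1613 ± 312 (SD, n = 2) at 11.5 dpc and 1202 ± 80.3 (SD, n = 2) at 18.5 dpc. A second Wnt4 probe set, on array A, had means of 162, 238, 124, 183 and 118 at the 5 ages, the same order of high and low as Fst on array A between neighbouring ages, and did not pass the F test (adjusted p = 0.0946).

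Of the ligands that follistatin binds, activins are dimers of inhibin beta subunits, and inhibin adds the alpha subunit. Of 5 listed subunits 4 were tested. From 11.5 to 18.5 dpc, where 7.59% of all tested probe sets rose and 6.87% fell, 1 changed, Inha, the alpha subunit. Its signals were 174.8 and 247.6 at 11.5 dpc, 171.3 and 106.0 at 12.5 dpc, 100.7 and 66.0 at 14.5 dpc, 183.9 and 115.3 at 16.5 dpc, ending with 72.6 and 80.6 at 18.5 dpc. The fall was -1.28 ± 0.28 (limma, adjusted p = 0.00856), and it lost the call without replicate 2 of 11.5 dpc (adjusted p = 0.053) or replicate 1 of 18.5 dpc (0.0643). The beta subunits had low signals. Inhba had age means of 33.2 to 60.7, Inhbb of 46.9 to 90.2 and Inhbc of 50.9 to 89.4, and none of the 3 was called in a comparison or in the F test. Their changes from 11.5 to 18.5 dpc were -0.24, -0.75 and 0.49, with adjusted p-values of 0.699, 0.0795 and 0.186 by limma.

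Of 8 activin receptors and inhibin coreceptors 7 were tested. From 11.5 to 18.5 dpc 2 type I receptors fell, Acvr1 by 1.22 ± 0.21 (limma, adjusted p = 0.00206) and Acvr1b by 0.81 ± 0.25 (limma, adjusted p = 0.044), and 5 were not called, where 6.87% of all tested probe sets fell. Acvr1 had signals of 347.3 and 335.1 at 11.5 dpc, 266.1 and 297.3 at 12.5 dpc, 202.4 and 162.4 at 14.5 dpc, 188.4 and 226.6 at 16.5 dpc, ending with 151.3 and 124.7 at 18.5 dpc. Acvr1b lost the call in 7 of 10 fits that left out a sample (adjusted p up to 0.366), and its other tested probe set changed by 0.24. Acvr1c, another type I receptor, passed the F test (adjusted p = 0.0401) with means of 90.2, 39.4, 4.25, 19.1 and 21.8 over the 5 ages, and its change of -1.55 from 11.5 to 18.5 dpc was not called (adjusted p = 0.0545). The type II receptors Acvr2a and Acvr2b changed by 0.10 and -0.18 and were not called, nor were Acvrl1 (-0.07) and the coreceptor Tgfbr3 (-0.23).

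**Figure D4:**
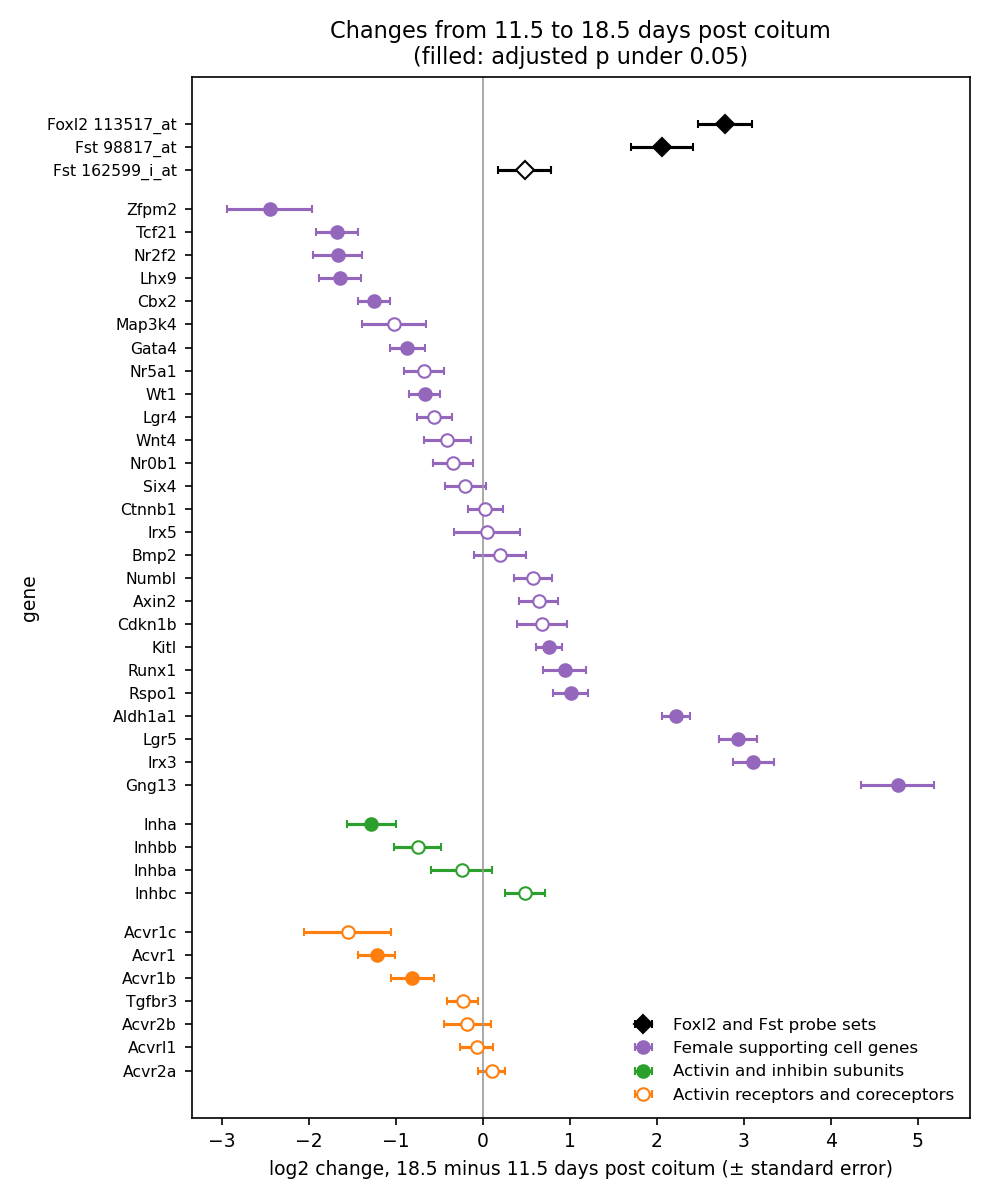
Log2 change from 11.5 to 18.5 dpc (horizontal axis, with standard errors) of the Foxl2 and Fst probe sets, of the tested female supporting cell genes, of the inhibin and activin subunits and of the activin receptors and inhibin coreceptors; filled points had an adjusted p under 0.05. Of the 26 female supporting cell genes 7 are filled on either side of 0, and the filled subunit (Inha) and receptors (Acvr1 and Acvr1b) lie below 0.

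Downstream of the receptors, 11 of 13 listed Smads and partners were tested, and from 11.5 to 18.5 dpc 3 fell and 0 rose, where 6.87% of all tested probe sets fell and 7.59% rose. They were Smad6, an inhibitory Smad (-0.85 ± 0.17), and the SMAD corepressors Skil (-0.88 ± 0.26) and Tgif1 (-0.66 ± 0.16). Each lost the call with a sample of 11.5 or 18.5 dpc left out, at limma adjusted p-values of up to 0.0654, 0.199 and 0.108. Smad2 and Smad3, which carry the activin signal, changed by 0.15 and -0.14 and were not called. Smurf2, a ubiquitin ligase acting on this pathway, was not called on its chosen probe set (0.41) but rose on another (1.62; limma, adjusted p = 0.00208).

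Of 8 other ligands listed as bound by follistatin 7 were tested for change, and the binding itself was not tested here. From 11.5 to 18.5 dpc Gdf9, an oocyte growth factor, rose (0.70 ± 0.21, limma adjusted p = 0.0437) and Gdf11 fell (-1.53 ± 0.35, limma adjusted p = 0.0105). Of all tested probe sets 7.59% rose and 6.87% fell. Gdf9 was called in 4 and Gdf11 in 8 of 10 fits that left out a sample, with adjusted p-values of up to 0.217 and 0.0933. Bmp7 and Bmp4 were not called on the probe sets of highest signal, whereas another of Bmp7 rose by 1.34 (limma, adjusted p = 0.0136) and another of Bmp4 fell by 1.98 (limma, adjusted p = 0.00608). Bmp2, which is also on the female supporting list, changed over the 5 ages (limma F test, adjusted p = 0.0152). Its signals were 487.8 and 236.3 at 11.5 dpc, 569.2 and 703.4 at 12.5 dpc, 1395.9 and 796.0 at 14.5 dpc, 655.0 and 713.3 at 16.5 dpc, ending with 391.5 and 396.2 at 18.5 dpc. It was thus highest at 14.5 dpc, where Fst on array A was lower than at the ages on either side; another Bmp2 probe set had means of 13.7 to 49.5 and did not pass the F test (adjusted p = 0.11).

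Among the relatives of both genes the counts were set beside the 14.5% of all tested probe sets called from 11.5 to 18.5 dpc. Of 12 tested genes with follistatin domains, of 15 listed, Igfbp7 rose from 11.5 to 18.5 dpc (1.51 ± 0.32; limma, adjusted p = 0.00796, and 0.0846 without replicate 1 of 18.5 dpc) and 11 were not called, 1 of 12 being near that share. Other probe sets of Agrn rose by 0.95 and 0.57 (limma, adjusted p = 0.0175 and 0.0415) and another of Tmeff1 fell by 0.77 (adjusted p = 0.0309), where the chosen ones changed by -0.33 and 0.31. Of 9 tested other secreted antagonists, of 15 listed, Nbl1 rose (1.51 ± 0.36; limma, adjusted p = 0.0144, and up to 0.0984 with a sample left out), and another probe set of Twsg1 rose by 1.02 (adjusted p = 0.00254), where the chosen one changed by 0.52. Kcp, a secreted regulator of BMP signals, fell at 14.5 dpc and rose again at 16.5 dpc, as the means of Fst on array A did. Its means were 237 at 12.5 dpc, 83.5 at 14.5 dpc and 375 at 16.5 dpc, and the changes were -1.29 ± 0.26 (limma, adjusted p = 0.0264) and 1.98 ± 0.26 (limma, adjusted p = 0.00369). The fall had an adjusted p of 0.271 without replicate 1 of 12.5 dpc, and the rise one of 0.0593 without replicate 2 of 16.5 dpc. Of 23 tested forkhead genes other than Foxl2, of 36 listed, 4 rose and 5 fell from 11.5 to 18.5 dpc, with a median of 0.12 beside 0.02 over all tested probe sets, of which 7.59% rose and 6.87% fell. The falls were those of Foxd2 (-1.70 ± 0.25), Foxd1 (-1.55 ± 0.43), Foxc2 (-1.48 ± 0.40), Foxp4 (-1.29 ± 0.23) and Foxp1 (-1.12 ± 0.23), and the rises those of Foxo3 (1.20 ± 0.17), Foxj2 (1.04 ± 0.18), Foxn2 (0.85 ± 0.26) and Foxa3 (0.80 ± 0.24). Foxd1, Foxc2, Foxn2 and Foxa3 lost the call with a sample left out, at limma adjusted p-values of up to 0.193, 0.124, 0.245 and 0.183, while another Foxd2 probe set changed by -0.08 and the other Foxp1 probe sets were not called. Foxp2 was not called on its chosen probe set (-1.22) but fell on another (-2.15; limma, adjusted p = 0.00934).

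Genes of granulosa differentiation and described targets of FOXL2 changed in both directions over the ages at which Foxl2 rose. Of 22 listed genes 13 were tested, and from 11.5 to 18.5 dpc 4 rose and 3 fell, with a median of -0.01; of all tested probe sets 7.59% rose and 6.87% fell. Those that rose were Esr1, an estrogen receptor (1.62 ± 0.35), Foxo3 (1.20 ± 0.17), Fshr, the receptor of follicle-stimulating hormone (0.65 ± 0.20), and Sod2 (0.63 ± 0.17). Those that fell were the steroidogenic enzyme Cyp11a1 (-1.45 ± 0.37), Inha and the gap junction gene Gja1 (-0.85 ± 0.13). Esr1 had signals of 45.9 and 54.0 at 11.5 dpc, 61.4 and 81.4 at 12.5 dpc, 146.6 and 137.6 at 14.5 dpc, 239.8 and 172.3 at 16.5 dpc, ending with 191.7 and 180.8 at 18.5 dpc. Another Esr1 probe set also rose from 11.5 to 18.5 dpc, by 1.81 (limma, adjusted p = 0.000409). Esr1, Fshr, Sod2 and Cyp11a1 lost the call with a sample left out, at limma adjusted p-values of up to 0.0603, 0.249, 0.155 and 0.153, and the other Sod2 probe set changed by -0.09. Amhr2, a receptor of anti-Müllerian hormone, changed by -0.01 on its chosen probe set, which has the suffix f, and rose by 0.82 on another with that suffix (limma, adjusted p = 0.0383).

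Summed signals of markers of some other cell types also differed between the ages. The summed signal of 10 mesenchyme and smooth muscle markers was 2127 to 2452 at 11.5 dpc and 4670 to 4873 at 18.5 dpc, with Cnn1 under 50 on all arrays. That of 8 surface epithelium markers was 1245 to 2009 and 4572 to 4590, with Msln under 50. That of 8 endothelial markers was 701 to 703 and 331 to 336.5, with Tek under 50, and that of 10 germ cell markers was 1256 to 1486 and 2896 to 3209. The sum of 7 erythroid markers, with Epor under 50, was 15780 to 17360 at 11.5 dpc and 16430 to 16780 at 18.5 dpc. At 16.5 dpc it was 11790 to 12570. For 8 macrophage markers the sums of 11.5 and 18.5 dpc were 405 to 416 and 435 to 524.5, with Adgre1 and Fcer1g under 50. For 6 mesonephros and kidney tubule markers they were 346 to 368 and 261 to 268, with Pax2, Pax8 and Cdh16 under 50. Germ cell markers summed to 2024 to 2702 at 12.5 dpc, 2158 to 3145 at 14.5 dpc and 1421 to 1422 at 16.5 dpc. Of 9 tested germ cell markers 5 rose and 2, Pou5f1 and Dppa5a, fell from 11.5 to 18.5 dpc. Of all tested probe sets 7.59% rose and 6.87% fell. Other probe sets of Ddx4, Dazl and Pou5f1 changed by -0.46, 0.28 and 0.07 and were not called. Another of Nobox rose by 2.86 (limma, adjusted p = 0.000225). Mesenchyme and smooth muscle markers summed to 5087 to 7586 at 16.5 dpc, the age of the highest Foxl2 mean. The ratio of the 3′ to the 5′ Gapdh control, a measure of RNA and labelling quality, was 0.829 to 0.845 at 11.5 dpc, 0.830 to 0.838 at 12.5 dpc, 0.885 to 0.951 at 14.5 dpc, 0.917 to 1.09 at 16.5 dpc and 1.05 to 1.08 at 18.5 dpc. It was thus higher at the ages where Foxl2 was high. The part of these shifts in the changes of Foxl2 and Fst was not tested.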

How the data were processed

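The authors deposited a signal intensity for each probe set of each array, which per the labels was scaled to a mean of 125. The software behind it was not given in the sources used, and detection calls were left out. Gene names came from the platform annotation (29131 probe sets with 1 symbol; only these were named). No symbol changed against a RefSeq gene table. Of the arrays' 36701 probe sets, 24825 passed the filter and were fitted as log2(signal + 16) with limma 3.58.1 in R 4.3.3, lmFit and eBayes with trend, per array type with the 5 ages as groups, and adjusted by Benjamini-Hochberg over the 3 types together. A fold change is on this scale and understates that of low signals. The number of arrays limits the precision. The procedure was tested on simulated data. The 2 genes, the 17 lists and the comparisons were chosen with earlier results of these data known. For a list gene the tested probe set of highest mean signal was used. Named were the genes of each list called with the 4 largest changes, all members of counts of 5 or fewer, all female supporting genes, activin subunits and receptors, and the 6 genes most like Foxl2 and Fst. Correlations had 100000 permutations. Alternatives were another pseudocount, filter, normalization, variance trend or adjustment, a replicate block, and each sample left out.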

Additional observations from a re-analysis of the deposited data

How the results depend on the processing

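The calls of Foxl2 from 11.5 to 18.5 dpc and from 12.5 to 16.5 dpc, and of Fst on array A from 11.5 to 18.5 dpc, held in all 10 fits that left out a sample, with changes of 2.66 to 2.91, 1.70 to 2.95 and 1.47 to 2.64. The call of Fst on array A from 11.5 to 12.5 dpc was lost without the variance trend (2.50, adjusted p = 0.0843), without the filter (2.50, adjusted p = 0.0646) and in 3 fits that left out a sample (range 1.92 to 3.09). With a sample left out, the change of Foxl2 ran from 0.50 to 1.75 between 12.5 and 14.5 dpc and from 1.11 to 1.29 between 14.5 and 16.5 dpc, and that of Fst on array A from 0.84 to 1.54 in the latter step; each gained a call in 1 or 2 such fits. The difference of Fst on array A and Foxl2 had an exact permutation p of 0.0603 with the chosen pseudocount of 16 and 0.0889 with a pseudocount of 1. Neither passed the threshold of 0.05. That p was 0.0159 with a pseudocount of 64 and 0.0476 with quantile normalization. With the Fst probe set on array B it was 0.00635, for a difference that mostly carries the change of Foxl2.

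Replicate numbers were not used to pair the samples, and the labels do not state a pairing. Differences between replicates correlated at -0.161 to 0.219 over 30 pairs of ages, counted on each of the 3 array types, with 1 over 0.1. With the replicate block Fst on array A rose by 2.50 from 11.5 to 12.5 dpc (adjusted p = 0.0455), and 32 probe sets were called there in place of 56. Without the variance trend 4 were called in that step, without the filter 6, with quantile normalization 32 and with a sample left out 2 to 553. From 12.5 to 14.5 dpc the count was 412, and 271 without the trend (112 to 830 with a sample left out). From 14.5 to 16.5 dpc it was 171, 76 without the trend and 101 without the filter (30 to 564). From 16.5 to 18.5 dpc it was 155, and 88 with a pseudocount of 1 (33 to 242). It was 3589 from 11.5 to 18.5 dpc (1562 to 3478 with a sample left out), 1459 from 12.5 to 16.5 dpc (436 to 1963) and 3565 in the F test (1812 to 4366). Replicate 1 of 11.5 dpc had a signal of 22.7 for Fst on array A, near the pseudocount of 16, and replicate 2 one of 71.0. The 2 samples an age limit every test.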
